A study of Mus musculus with 11 samples.

Results

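Synaptic vesicle and SNARE genes encode the proteins that fill the vesicle membrane and fuse it with the target membrane. The set was defined by gene symbol alone, with earlier results of these data known. It took in the synaptotagmins, syntaxins, VAMPs, SNAP-25 relatives, synapsins, Rab3 GTPases, SV2 glycoproteins, syntaxin-binding proteins and complexins, plus Syp, Syngr1 and Nsf. It held 67 of the 24138 loci of the expression table, each with a single symbol, and 55 of them reached a mean of 1 FPKM (fragments per kilobase of transcript, scaled to the library) and were tested among 12672 loci. RNA came from mouse cortex at stage E14.5, as 2 Chd8 conditional knockout (cKO) libraries labelled Chd8 c/c with Emx1-cre, and 3 control libraries without Cre, of which control 1 was Chd8 c/+ and controls 2 and 3 were Chd8 c/c. Emx1-cre acts in dorsal telencephalic progenitors and their progeny, so interneurons, microglia and vessels of the dissected cortex keep the gene. Chd8 RNA, the check of the labels, was 19.3 and 15.1 FPKM in cKO 1 and 2, against 31.5, 30.02 and 31.8 FPKM in controls 1 to 3, or 55.2% of the control mean. The labels do not say whether a library came from 1 embryo or a pool, and p-values measure only the spread between these libraries.

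In exocytosis, a vesicle SNARE (a VAMP) zips up with plasma membrane SNAREs (a syntaxin and a SNAP-25 relative) into a bundle that pulls the membranes together. Synaptotagmins sense the calcium that triggers fusion, complexins clamp and promote the assembled bundle, Sec1/Munc18 proteins chaperone the syntaxins, and the ATPase Nsf takes used bundles apart. Other syntaxins and VAMPs serve endosomes, the Golgi and the endoplasmic reticulum in all cells. In the embryonic cortex the neuronal members come on as neurons are born, before most synapses form, and the same machinery adds membrane to growing axons.

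RefSeq promoter windows of the build GRCm38.p6 (mm10), the 250 bases before the annotated start, were matched for 53 of the 67 genes, with 69 windows among them. The 3 windows below are shown because Sv2b had the largest positive change among the tested members, Rab3a the highest level, and Syn1 is the neuron-specific promoter whose window held the rarest motif searched. Capitals mark motif matches, and each window is 5′ to 3′ on the strand of its gene. Sv2b lies at chr7:75309263-75309512 on the minus strand, before the outermost of its 4 annotated starts. Rab3a lies at chr8:70754453-70754702 on the plus strand, before the outer of its 2 starts, and Syn1 at chrX:20920919-20921168 on the minus strand.
Sv2b: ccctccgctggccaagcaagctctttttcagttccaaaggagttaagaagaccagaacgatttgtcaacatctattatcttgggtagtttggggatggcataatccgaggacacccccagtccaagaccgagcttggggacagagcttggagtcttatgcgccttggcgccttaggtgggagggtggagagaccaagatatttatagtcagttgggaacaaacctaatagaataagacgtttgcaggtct
Rab3a: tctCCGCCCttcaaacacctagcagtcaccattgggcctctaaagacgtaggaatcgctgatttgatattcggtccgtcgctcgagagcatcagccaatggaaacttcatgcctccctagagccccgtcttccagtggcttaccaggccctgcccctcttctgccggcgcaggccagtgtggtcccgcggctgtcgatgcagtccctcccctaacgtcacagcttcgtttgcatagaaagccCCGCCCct
Syn1: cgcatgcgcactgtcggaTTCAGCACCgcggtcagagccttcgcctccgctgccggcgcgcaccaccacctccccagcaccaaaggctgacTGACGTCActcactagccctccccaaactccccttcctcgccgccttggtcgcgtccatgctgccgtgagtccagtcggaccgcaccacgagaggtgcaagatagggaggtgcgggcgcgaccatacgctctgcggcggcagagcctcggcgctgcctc

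Short motifs were searched on both strands of these windows. The left part of the RE1 element, TTCAGCACC, is bound by REST, the repressor that keeps neuronal genes silent in other cells. It stood in 1 of 69 member windows, that of Syn1, beginning 232 bases before the start, and in 0.301% of all 32851 windows. The cyclic AMP response element TGACGTCA stood in 2 member windows, of Syn1 and Stxbp3, and in 1.55% of all windows. The E-box CAGCTG, of a kind bound by proneural factors, stood in 18 member windows, or 26.1%, and in 13.0% of all windows. The GC box GGGCGG stood in 40 member windows, or 58.0%, including that of Rab3a, and in 32.7% of all. The Sv2b window shown held none of these letters. These motifs do not overlap in the windows printed, and a match is a description of the letters only.

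The comparison asked which of these genes differ between cKO and control cortex. No member passed at an adjusted p under 0.05 in limma, a linear model on log2(FPKM + 1) with Benjamini-Hochberg adjustment over all loci, where 0.0473% of all tested loci passed. Chd8 itself did not pass either (log2 change -0.83, unadjusted p = 0.00172, adjusted p = 0.575 in limma). Failing this test therefore does not show that a gene is unchanged. At an unadjusted p under 0.05, 3 of 55 members (5.45%) stood out against 7.45% of all tested loci. Of these, 2 were higher in the cKO, Sv2b and Snap25 (3.64%, against 3.08% of all tested loci), and 1 was lower, Stxbp2 (1.82%, against 4.37%). Both cKO libraries lay above every control in 8 of the 55 members, where 13.4% of all tested loci did, and below every control in 2 (3.64%, against 15.6%). The median log2 change of the tested members, cKO minus control, was 0.07, against -0.02 for all tested loci, and 49 of the 55 changes were smaller than 0.5 in size. The log2(FPKM + 1) scale understates the change of low genes. In tissue RNA, fewer cells of a type and less RNA per cell cannot be told apart.

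The width of the intervals limits what can be said of the others. The 95% interval of the log2 change lay within 1 unit either way, or 2-fold on this scale, in 38 of the 55 members. In 44 of 55 members the difference of the group means was smaller than the range of the 3 controls. An exact permutation test of 2 against 3 libraries has 10 splits and cannot give a two-sided p below 0.1, and among the tested members Sv2b, Syn2, Syt9 and Syt11 reached that value.

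**Figure D1:**
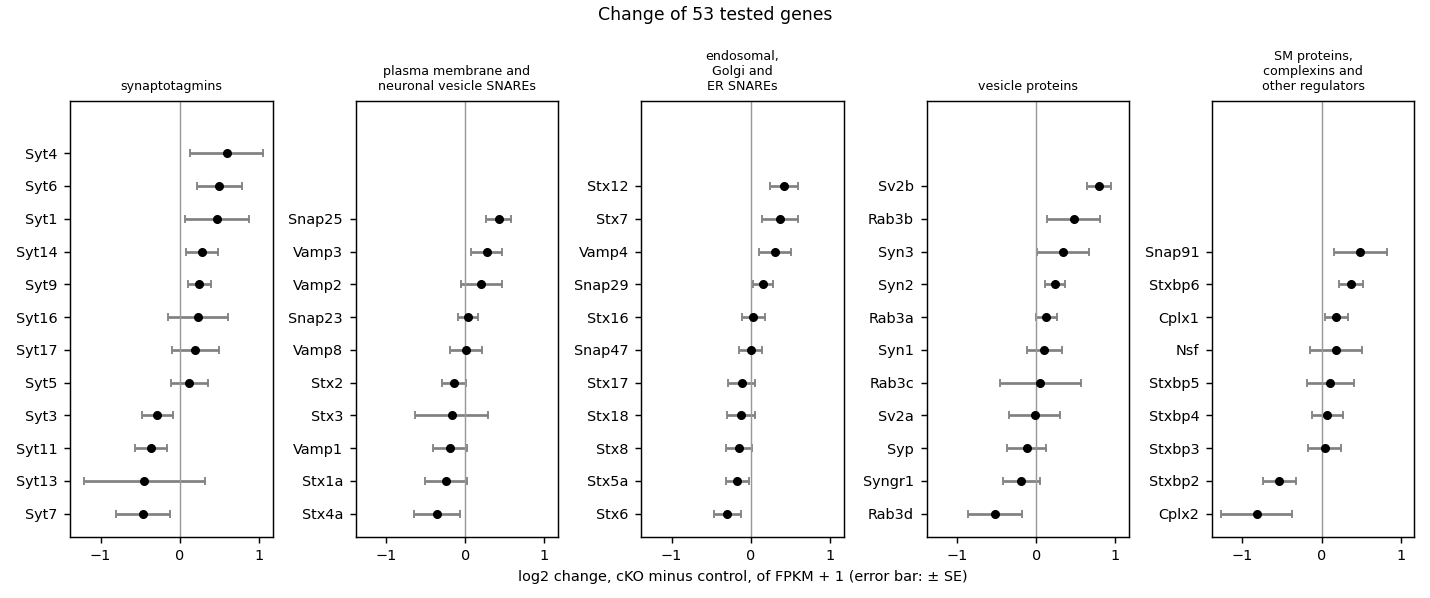
Difference between the cKO and control means of log2(FPKM + 1) for 53 of the tested genes (x axis), in 5 panels by role, with error bars of 1 SE from the limma fit of 2 cKO and 3 control libraries. Sv2b lies farthest to the right at 0.79 and Cplx2 farthest to the left at -0.82.

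Proteins of the vesicle membrane and surface were led by Rab3a, the small GTPase that marks vesicles ready for release, at a mean of 172 FPKM over the 5 libraries. Sv2b, a paralog of the vesicle glycoprotein Sv2a, was the member with the smallest p. It was 6.86 and 5.70 FPKM in cKO 1 and 2, against 2.93, 3.34 and 3.29 FPKM in controls 1 to 3. Both cKO libraries lay well above the controls, which lay close together. The cKO mean was 6.28 ± 0.821 FPKM (SD, n = 2) and the control mean 3.19 ± 0.227 FPKM (SD, n = 3), or 1.97 times as high in the cKO. The log2 change was 0.79 (SE 0.16, 95% interval 0.41 to 1.18, adjusted p = 0.575 in limma), and the exact permutation p was 0.1. In the authors' deposited table Sv2b was marked significant, with a log2 fold change of 0.98 and a q-value of 0.00331. That table marked 4.21% of the 13511 loci it tested, and 3 of the 57 members among them (5.26%). Sv2b was the 1 marked higher, where 1.21% of all its tested loci were, and Cplx2 and Syt13 were the 2 marked lower, against 3% of all.

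Sv2a, the paralog that binds the antiepileptic drug levetiracetam, was far more abundant. It was 44.3 and 30.6 FPKM in cKO 1 and 2, against 53.6, 27.2 and 35.55 FPKM in controls 1 to 3, so the groups overlapped (log2 change -0.02, 95% interval -0.82 to 0.78). Sv2b therefore took 13.2% and 15.4% of the FPKM of the 3 Sv2 genes in cKO 1 and 2, against 5.0%, 10.9% and 8.36% in controls 1 to 3. Such a share does not depend on how libraries are scaled. The highest control share, in control 2, came with the lowest summed FPKM of the family, 30.7. Sv2c was 0.815 and 0.667 FPKM in cKO 1 and 2, against 1.97, 0.146 and 0.537 FPKM in controls 1 to 3. It fell below the filter of 1 FPKM, and its control range spanned both cKO values.

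The synapsins tether vesicles to each other and to actin. Syn2 was 22.4 and 20.2 FPKM in cKO 1 and 2, against 18.8, 16.7 and 18.1 FPKM in controls 1 to 3. The cKO libraries lay above every control, and the log2 change was 0.24 (SE 0.13, adjusted p = 0.575 in limma). Syn1 was 46.5 and 48.4 FPKM in cKO 1 and 2, against 55.2, 34.3 and 45.5 FPKM in controls 1 to 3, and both cKO values fell between controls. Syn1 took between 55.1% and 60.3% of synapsin FPKM in the cKO and between 59.3% and 61.6% in the controls.

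Among the Rab3 GTPases, Rab3a was 176 and 186 FPKM in cKO 1 and 2, against 175, 157 and 164 FPKM in controls 1 to 3. The cKO libraries lay above every control, with cKO 1 close to control 1 (log2 change 0.13, 95% interval -0.21 to 0.47). Rab3b was 6.25 and 4.86 FPKM in cKO 1 and 2, against 5.62, 2.15 and 3.93 FPKM in controls 1 to 3. Rab3d, a Rab3 of secretory granules in exocrine cells, was 9.23 and 6.16 FPKM in cKO 1 and 2, against 7.61, 16.8 and 11.1 FPKM in controls 1 to 3. For both genes the groups overlapped, and control 2 stood apart, lowest for Rab3b and highest for Rab3d. Syp, the tetraspan vesicle protein synaptophysin, was 66.8 and 43.6 FPKM in cKO 1 and 2, against 69.7, 47.9 and 60.6 FPKM in controls 1 to 3. The cKO libraries were as far apart as the controls (log2 change -0.12, SE 0.25). Without control 1 or without cKO 2 the sign of the Syp change turned (0.001 and 0.18).

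**Figure D2:**
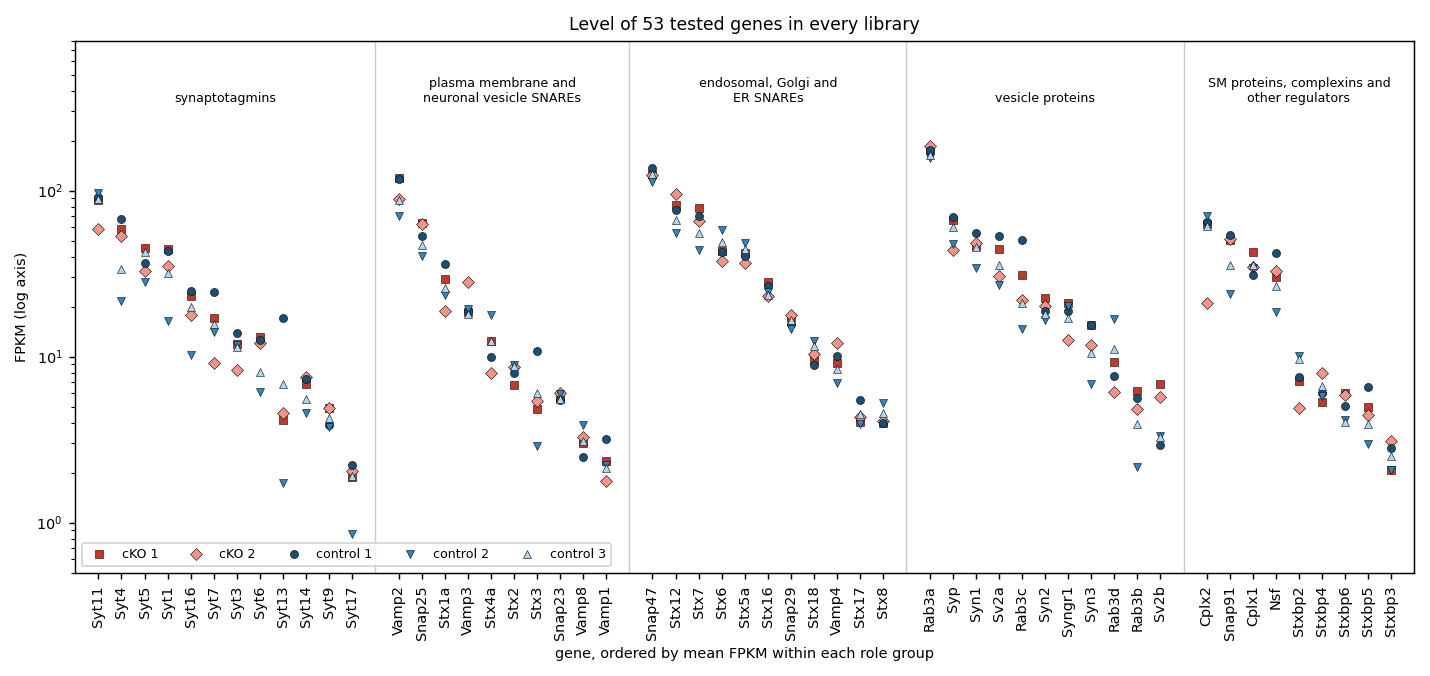
FPKM (y axis, log scale) of 53 tested genes in each of the 2 cKO and 3 control libraries, in 5 groups by role and ordered by mean within each group. Rab3a is the highest gene in the plot at a mean of 172 FPKM, and in most synaptotagmins the symbol of control 2 is the lowest of the 5.

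The SNAREs of the plasma membrane and of neuronal vesicles had changes of both signs, with a median log2 change of -0.14 over 11 tested genes. Snap25, the neuronal SNARE that contributes a pair of helices to the bundle, was 63.5 and 62.6 FPKM in cKO 1 and 2, against 53.3, 40.6 and 47.3 FPKM in controls 1 to 3. Both cKO libraries exceeded every control, and they lay close to each other. The log2 change was 0.42 (SE 0.16, 95% interval 0.03 to 0.81, unadjusted p = 0.0383, adjusted p = 0.575 in limma). Snap23, its relative in non-neuronal cells, was 5.83 ± 0.308 FPKM in the cKO (SD, n = 2) and 5.67 ± 0.284 FPKM in the controls (SD, n = 3). Snap25 took 91.9% and 91.2% of the FPKM of this pair in cKO 1 and 2, against 90.7%, 87.1% and 89.5% in controls 1 to 3.

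The SNARE partners of Snap25 described here had overlapping groups. Vamp2, the main vesicle SNARE of neurons, was 119.6 and 89.3 FPKM in cKO 1 and 2, against 118, 70.2 and 87.4 FPKM in controls 1 to 3. The groups overlapped (log2 change 0.20, 95% interval -0.45 to 0.86), and without cKO 1 the change was -0.006. Stx1a, a neuronal syntaxin of the plasma membrane, was 29.6 and 18.9 FPKM in cKO 1 and 2, against 36.4, 23.7 and 25.9 FPKM in controls 1 to 3. The lowest of the 5 libraries was cKO 2, while cKO 1 lay within the controls (log2 change -0.24, SE 0.27).

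Broadly expressed SNAREs of this role group included Vamp3 (cellubrevin, of recycling endosomes) and the plasma membrane syntaxins Stx2 and Stx4a. Vamp3 was 18.5 and 28.2 FPKM in cKO 1 and 2, against 18.8, 19.5 and 18.1 FPKM in controls 1 to 3, so a single cKO library lay above the controls. Stx4a was 12.4 and 7.98 FPKM in cKO 1 and 2, against 9.89, 17.8 and 12.4 FPKM in controls 1 to 3. Stx2 was 6.74 and 8.62 FPKM in cKO 1 and 2, against 7.95, 8.95 and 8.72 FPKM in controls 1 to 3. Groups overlapped for both syntaxins, with log2 changes of -0.36 (SE 0.29) and -0.14 (SE 0.15). Without cKO 2 the Vamp3 change was -0.02, and without cKO 1 the Stx2 change was 0.01. The other tested genes of this group, Stx3, Vamp1 and Vamp8, were between 1.78 and 10.9 FPKM in single libraries.

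**Figure D3:**
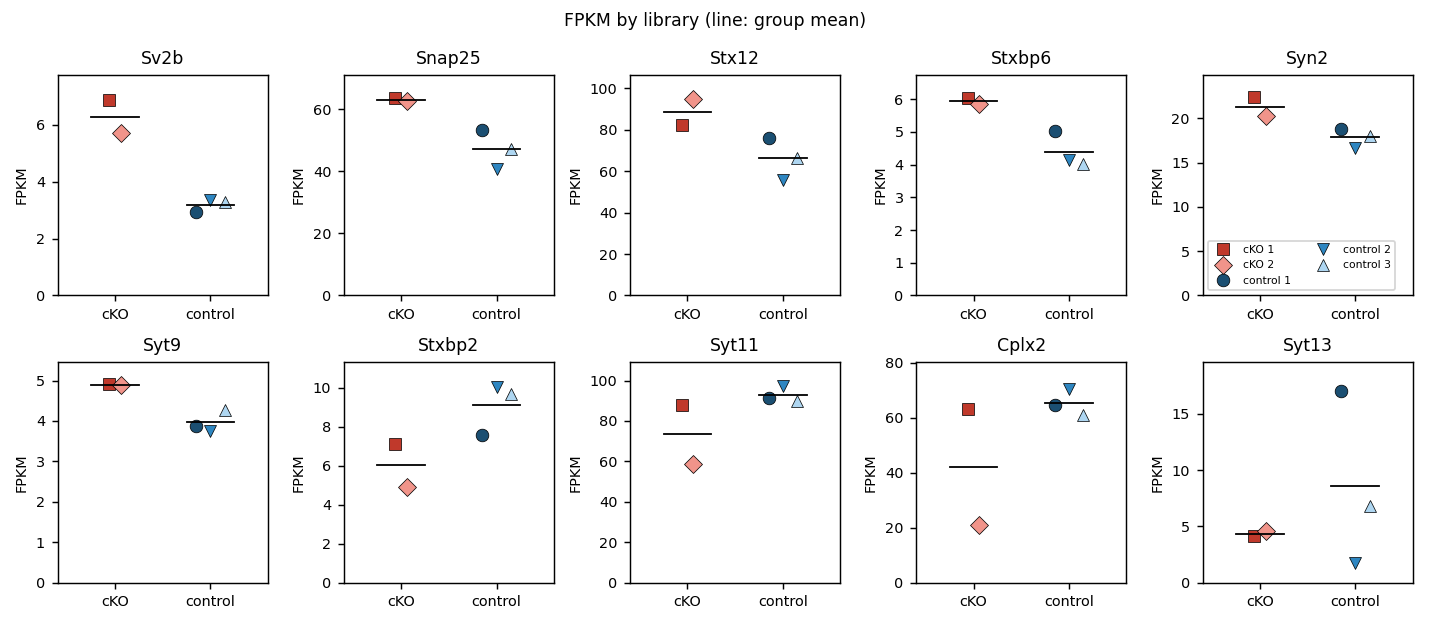
FPKM (y axes from 0) in each cKO and control library for 10 genes, with a line at each group mean. Sv2b, Snap25, Stx12, Stxbp6, Syn2 and Syt9 have both cKO symbols above all controls, Stxbp2 and Syt11 have both below, Cplx2 has 1 low cKO library at 20.9 FPKM, and in Syt13 the controls span 1.74 to 17.1 FPKM.

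Synaptotagmins were led by Syt11 and Syt4, members whose first C2 domain is not thought to bind calcium in the classical way. Syt11 was 88.0 and 58.8 FPKM in cKO 1 and 2, against 91.5, 97.4 and 89.7 FPKM in controls 1 to 3. The cKO lay below every control, but cKO 1 lay close to them (log2 change -0.36, SE 0.20, adjusted p = 0.575 in limma), and without cKO 2 the change was -0.08. Syt4 was 58.8 and 53.4 FPKM in cKO 1 and 2, against 67.8, 21.5 and 33.8 FPKM in controls 1 to 3. The controls spanned 3.15-fold and enclosed both cKO values. Syt1, the fast calcium sensor of release, was 44.8 and 34.9 FPKM in cKO 1 and 2, against 43.2, 16.4 and 31.96 FPKM in controls 1 to 3 (log2 change 0.47, 95% interval -0.55 to 1.48).

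Of the less abundant synaptotagmins, Syt9, also a fast calcium sensor in some neurons, was 4.91 and 4.88 FPKM in cKO 1 and 2, against 3.89, 3.76 and 4.27 FPKM in controls 1 to 3. Both cKO libraries were above the controls, and the log2 change was 0.25 (SE 0.14, adjusted p = 0.577 in limma). Syt6 was 13.2 and 12.03 FPKM in cKO 1 and 2, against 12.7, 6.14 and 8.10 FPKM in controls 1 to 3, with control 1 between the cKO values. Syt3 was 11.96 and 8.29 FPKM in cKO 1 and 2, against 13.97, 11.8 and 11.4 FPKM in controls 1 to 3, and cKO 1 lay within the controls. Syt7, the slow, high-affinity sensor, was 17.1 and 9.11 FPKM in cKO 1 and 2, against 24.6, 14.03 and 15.8 FPKM in controls 1 to 3. It too overlapped, with the lowest value in cKO 2.

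Syt13, an atypical synaptotagmin that does not bind calcium, was marked significant and lower in the authors' deposited table (log2 fold change -0.97, q-value 0.0121). Its values were 4.13 and 4.57 FPKM in cKO 1 and 2, against 17.1, 1.74 and 6.85 FPKM in controls 1 to 3. The cKO values lay inside the control range, which spanned 9.81-fold. The log2 change was -0.45 (SE 0.76, adjusted p = 0.829 in limma). It was 0.21 without control 1, the Chd8 c/+ library, and -1.16 without control 2.

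SNAREs of endosomes, the Golgi and the endoplasmic reticulum had a median log2 change of 0.00 over 11 tested genes, and their spread was narrow, from -0.29 to 0.42. Stx12, which acts in recycling endosomes, was 82.3 and 95 FPKM in cKO 1 and 2, against 76.04, 55.8 and 66.5 FPKM in controls 1 to 3. Both cKO libraries lay above the controls (log2 change 0.42, SE 0.18, adjusted p = 0.575 in limma). Stx7, of late endosomes, was 78.6 and 66.0 FPKM in cKO 1 and 2, against 70.1, 43.95 and 55.7 FPKM in controls 1 to 3, and control 1 lay between the cKO values. Stx6, of the trans-Golgi network, was 43.0 and 37.5 FPKM in cKO 1 and 2, against 42.7, 57.97 and 49.1 FPKM in controls 1 to 3. Vamp4, also of the trans-Golgi network, was 9.18 and 12.1 FPKM in cKO 1 and 2, against 10.03, 6.89 and 8.38 FPKM in controls 1 to 3. Neither Stx6 nor Vamp4 separated the groups.

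Snap47, an intracellular relative of Snap25, was the most abundant of these SNAREs and the member with the log2 change nearest 0. It was 124.9 ± 0.336 FPKM in the cKO (SD, n = 2) and 125.3 ± 11.4 FPKM in the controls (SD, n = 3), with a 95% interval of the log2 change from -0.36 to 0.36. Its sign turned with scaling, at 0.03 after scaling libraries to a common median and 0.11 after quantile normalization. Snap29, which serves autophagosomes among other membranes, was 17.4 and 17.7 FPKM in cKO 1 and 2, against 15.8, 14.65 and 16.7 FPKM in controls 1 to 3. It was above every control in both cKO libraries, by 1.12 times in the mean. The remaining 5 tested genes, Stx5a, Stx8, Stx16, Stx17 and Stx18, had changes between -0.17 and 0.03.

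Among the Sec1/Munc18 proteins, complexins and other regulators, changes were 8 positive and 2 negative, with a median of 0.13. Cplx2, the complexin of most forebrain excitatory neurons in the mouse, was 63.3 and 20.9 FPKM in cKO 1 and 2, against 64.7, 70.5 and 60.9 FPKM in controls 1 to 3. The first cKO library lay inside the control range and the second far below it. The authors' deposited table marked Cplx2 significant (log2 fold change -0.64, q-value 0.0152). The log2 change in limma was -0.82 (SE 0.45, adjusted p = 0.575), and it was -0.04 without cKO 2 and -1.60 without cKO 1. Cplx1, the complexin of many inhibitory neurons in the mouse, was 42.8 and 34.5 FPKM in cKO 1 and 2, against 31.04, 34.3 and 35.8 FPKM in controls 1 to 3. Cplx2 thus took 59.6% and 37.7% of complexin FPKM in cKO 1 and 2, against 67.5%, 67.3% and 63.0% in controls 1 to 3. Both cKO shares were below every control, while their difference from each other exceeded the gap to the controls.

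**Figure D4:**
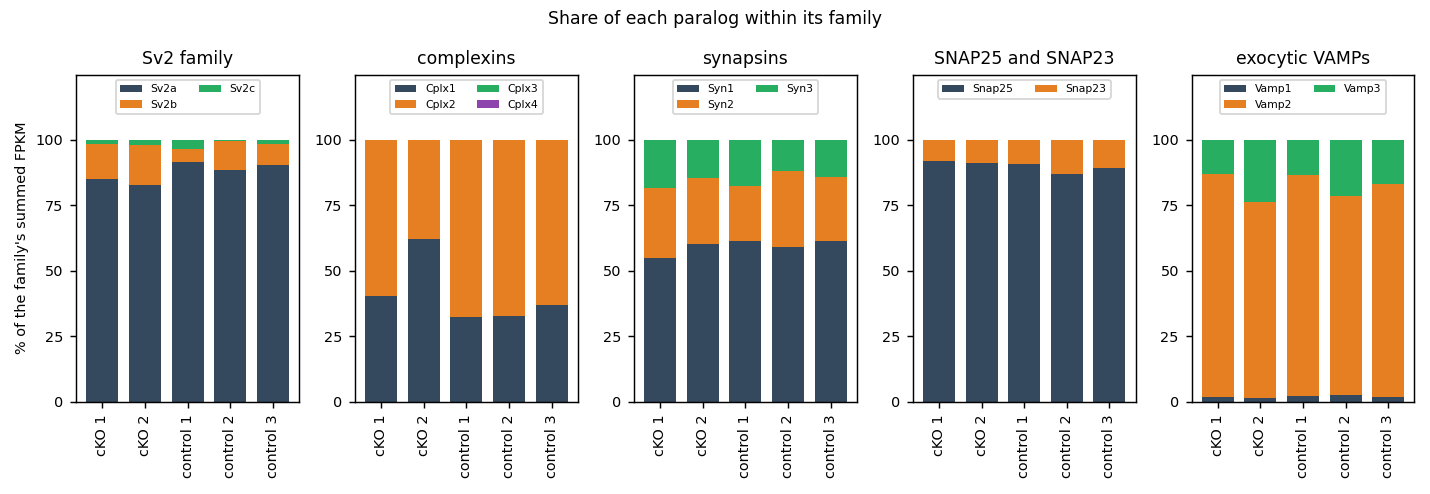
Share of each paralog in the summed FPKM of its family (stacked bars, in %), for the 2 cKO libraries and then the 3 controls, in 5 families. Sv2b takes 13.2% and 15.4% in the cKO against at most 10.9% in a control, Cplx2 takes 37.7% in cKO 2, and Snap25 takes 91.9% and 91.2% in the cKO against at most 90.7% in a control.

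Stxbp2 (Munc18-2), a Sec1/Munc18 protein used by epithelial and blood cells, was 7.11 and 4.92 FPKM in cKO 1 and 2, against 7.55, 10.03 and 9.69 FPKM in controls 1 to 3. Both cKO libraries lay below every control, with cKO 1 close to control 1 (log2 change -0.53, SE 0.20, unadjusted p = 0.0441, adjusted p = 0.575 in limma). Without cKO 2 the change was -0.31. Stxbp6 (amisyn), a SNARE-binding protein, was 6.04 and 5.87 FPKM in cKO 1 and 2, against 5.01, 4.13 and 4.02 FPKM in controls 1 to 3. The cKO lay above every control (log2 change 0.37, SE 0.15, adjusted p = 0.575 in limma). Snap91, the clathrin adaptor AP180 that retrieves vesicle membrane, was 50.7 and 51.2 FPKM in cKO 1 and 2, against 54.1, 23.9 and 35.7 FPKM in controls 1 to 3. Control 1 exceeded both cKO libraries. Nsf, with 31.6 ± 1.99 FPKM in the cKO (SD, n = 2) and 29.1 ± 11.8 FPKM in the controls (SD, n = 3), and Stxbp3, Stxbp4 and Stxbp5 also overlapped.

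The 12 members under a mean of 1 FPKM were Syt2, Syt8, Syt10, Syt12, Syt15, Stx11, Stx19, Vamp5, Vamp7, Sv2c, Cplx3 and Cplx4. Vamp7 was listed at 0 in every library, and whether this reflects the estimate for its locus was not tested. Syt2, the fast sensor of hindbrain and neuromuscular synapses, was 0.887 and 0.986 FPKM in cKO 1 and 2, against 1.04, 0.501 and 0.774 FPKM in controls 1 to 3. Stx11, a syntaxin of immune cells, was 0.405 and 0.564 FPKM in cKO 1 and 2, against 0.273, 0.127 and 0.216 FPKM in controls 1 to 3. It lay above every control in both cKO libraries but was too low for the test. Cplx4 had the opposite order, at 0 in both cKO libraries and 0.0374, 0.0218 and 0.0261 FPKM in controls 1 to 3. With no filter, 12 of 66 members had groups that did not overlap, against 25.9% of the 18480 loci. Stxbp2, used by epithelial and blood cells, lay below every control. Microglial genes, a list chosen with earlier results of these data known, had the same order of groups as Stx11. Of 12, 11 had both cKO libraries above every control, where 13.4% of all tested loci did. Their FPKM summed to between 109 and 112 in the cKO and between 37.3 and 53.5 in the controls, and none was at 0. Their part in the Stx11 values was not tested.

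The controls differed from each other, with control 2 low and control 1 high in the median member. Control 2 was the lowest of the 5 libraries in 29 of 55 members (52.7%), against 27.6% of all tested loci, and in 9 of 12 synaptotagmins. The library cKO 2 was the lowest in 15 members (27.3%), against 30.9% of all tested loci. Control 1 was the highest in 19 members (34.5%), against 24.1% of all tested loci. The median member stood 0.14 and 0.04 log2 units above the control mean in cKO 1 and 2, at 0.17 in control 1, -0.19 in control 2 and 0.0004 in control 3. All members together summed to 0.414% and 0.378% of FPKM in cKO 1 and 2, against 0.449%, 0.293% and 0.363% in controls 1 to 3. The median change of the members was 0.17 without control 1 and -0.04 without control 2, so its sign rested on that library.

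Marker lists also varied between libraries. The 15 pan-neuronal genes, such as Tubb3 and Map2, stood at 0.09 and -0.49 log2 units in cKO 1 and 2, and at 0.52, -0.42 and -0.06 in controls 1 to 3. They summed to 3632 and 2603 FPKM in cKO 1 and 2, against 3971, 2665 and 3210.1 FPKM in controls 1 to 3, and none was at 0, so the labelled cortex held neurons in every library. The 6 intermediate progenitor genes stood at -0.83 and -1.33 in cKO 1 and 2, and at -0.49, 0.59 and -0.06 in controls 1 to 3. All 12 GABAergic genes of the ventral telencephalon had a positive change (median 0.90), 10 with both cKO libraries above every control (13.4% of all tested loci), and they summed to 1031 and 921 FPKM in cKO 1 and 2, against 465.9, 402.4 and 719 FPKM in controls 1 to 3. The 10 radial glial genes had a median change of -0.24 and the 8 vascular genes one of 0.06. In the 5 erythroid loci it was 0.20. These marker lists were chosen with earlier results of these data known, and the part of these shifts in the member values was not tested.

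**Figure D5:**
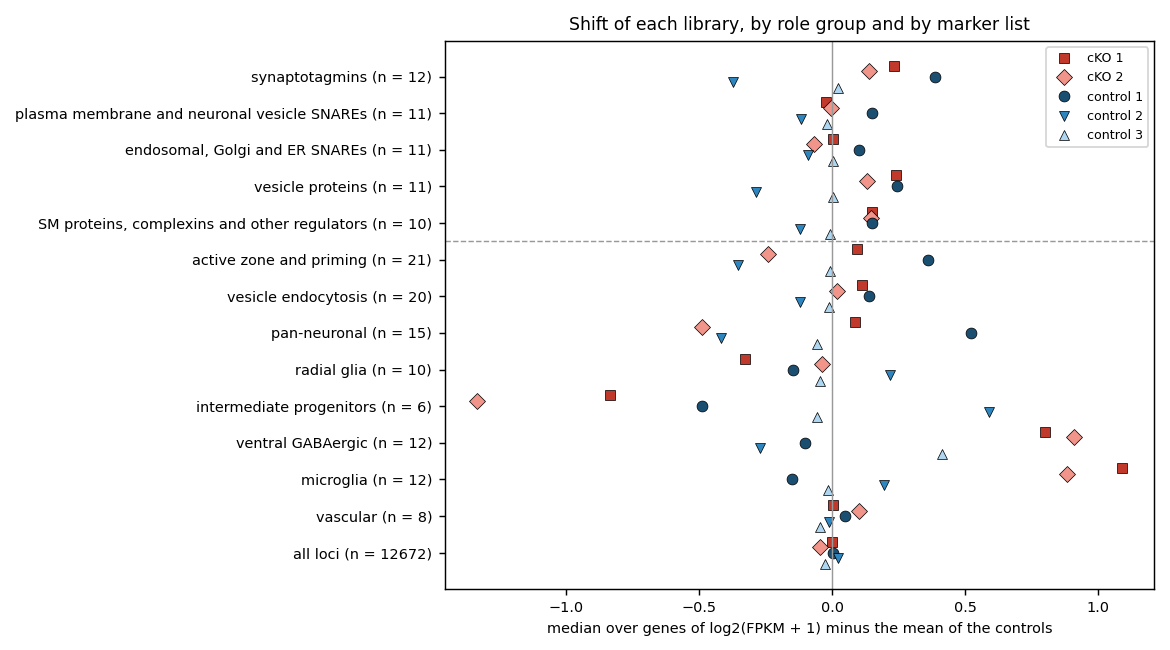
Median over genes of log2(FPKM + 1) minus the mean of the 3 controls (x axis) for each library. Rows are role groups of the members (above the dashed line) and marker or pathway lists (below it), with the number of tested loci. Control 2 lies to the left in synaptotagmins (-0.37), vesicle proteins (-0.29) and pan-neuronal genes (-0.42), and control 1 to the right (0.39, 0.24 and 0.52). In pan-neuronal genes cKO 2 lies farther left (-0.49). Both cKO libraries lie far right in ventral GABAergic and microglial genes, and control 3 also lies to the right in ventral GABAergic genes (0.41).

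Among other genes of the release pathway, listed by function, none passed the adjusted test in either direction, where 0.0473% of all tested loci did. Among 21 tested loci of the active zone and of vesicle priming, the median log2 change was -0.02 and none reached an unadjusted p under 0.05. Rims1 was entered as more than 1 of these loci. Both cKO libraries lay below every control in 3 of the 21 and above every control in 0, against 15.6% and 13.4% of all tested loci. Ppfia4, a liprin of the active zone and 1 of the 3, was 3.70 and 2.23 FPKM in cKO 1 and 2, against 4.59, 3.82 and 4.21 FPKM in controls 1 to 3. Ppfia1, another of the 3, was 14.58 and 13.95 FPKM, against 15.84, 17.12 and 17.09 FPKM. Ppfia3, also a liprin, was 18.7 and 7.02 FPKM in cKO 1 and 2, against 22.2, 17.6 and 16.8 FPKM in controls 1 to 3. Its groups overlapped, and as with Cplx2 the low value came from cKO 2. The 20 genes of vesicle endocytosis had a median of 0.05, and Cltc, the clathrin heavy chain, was 87.4 and 105.5 FPKM in cKO 1 and 2, against 85.6, 63.2 and 70.2 FPKM in controls 1 to 3. Of the 4 tested vesicular transmitter transporters (median 0.11), 1 was higher at an unadjusted p under 0.05, against 3.08% of all tested loci. It was Slc18a2, the monoamine transporter, at 11.8 and 19.4 FPKM in cKO 1 and 2, against 10.5, 6.17 and 9.85 FPKM in controls 1 to 3 (unadjusted p = 0.0498, adjusted p = 0.575 in limma). Groups overlapped for Slc17a6 (log2 change -0.29), Slc17a7 (0.16) and Slc32a1 (0.07).

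Among 11 other vesicle membrane proteins (median -0.13), 1 was higher and 2 were lower at an unadjusted p under 0.05, where 3.08% of all tested loci were higher and 4.37% lower. Synpr, a synaptophysin relative, was 10.3 and 11.01 FPKM in cKO 1 and 2, against 7.47, 4.22 and 7.31 FPKM in controls 1 to 3. Sypl2 was 0.677 and 0.441 FPKM in cKO 1 and 2, against 1.06, 2.28 and 1.94 FPKM in controls 1 to 3, and Scamp2, a carrier membrane protein, was 15.8 and 14.46 FPKM, against 18.1, 22.9 and 19.05 FPKM. Of the 11, Synpr alone had both cKO libraries above every control, against 13.4% of all tested loci. Sypl2 and Scamp2 were the 2 with both below, against 15.6%. The 9 genes of SNARE disassembly and chaperoning had a median of 0.19, with none past an unadjusted p of 0.05, against 7.45% of all tested loci. Hspa8, the chaperone that works with the vesicle protein Dnajc5, was 75.4 and 21.4 FPKM in cKO 1 and 2, against 71.1, 150.7 and 86.4 FPKM in controls 1 to 3, and Sncg, a synuclein, was 0.528 and 0.479 FPKM, against 22.4, 1.31 and 1.74 FPKM. In Sncg the control mean rested on control 1.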

How the data were processed

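Sample titles gave each library its group and number. Expression was deposited as FPKM per locus and library in a table laid out as Cuffdiff writes it. The header does not name the unit, which was read from that layout and from Cufflinks in the processing notes. The authors' mean FPKM per group, log2 fold change, test statistic score, p-value and q-value stood beside them, per the file headers. Per the submitters' processing notes mm10 was used, with Bowtie2, TopHat and Cufflinks among the tools (CASAVA and MACS are also named). For the annotation, tool versions and strand setting: not given in the sources used here. A protocol label names Eed, while titles and genotypes name Chd8. FPKM carries no counts, so sequencing depth is unknown, and no count test was run. FPKM summed to between 418191 and 484296 per library. Chromatin accessibility (6 ATAC-seq samples) was not analysed here.

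All loci that averaged 1 FPKM or more across the 5 libraries were tested with limma 3.58.1 (R 4.3.3) on log2(FPKM + 1), with an intensity trend, 3 residual degrees of freedom and Benjamini-Hochberg adjustment. The procedure was tested on simulated data, in which loci of like level shared a spread. That test did not cover changes as small as most of those of the members. The members and lists were chosen with earlier results of these data known. Named genes were Chd8, members marked in the authors' deposited table, and in each of 5 role groups the 4 with the smallest p and the 2 with the highest mean FPKM, plus up to 3 genes of each other list. Other genes named (such as Sv2a, Syn1, Stx1a, Syt1, Syt7, Cplx1 and Stx11) were chosen after their values were seen. Alternatives were another pseudocount (0.1), filter, scaling, no trend, a replicate block and leaving out each library. RefSeq symbols matched all 67 members. Values of 2 members are not reported here, though counts over the list include them.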

Additional observations from a re-analysis of the deposited data

How the results depend on the processing

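No member passed at an adjusted p under 0.05 in limma under any of the 12 alternatives run, and the lowest adjusted p of a member named by the rule was 0.186, for Cplx2 without cKO 1. The count of all loci called was 6, and 3 under the replicate block. It ranged from 8 to 35 when single libraries were left out. Members at an unadjusted p under 0.05 numbered 3, and 1 with a mean of at least 5 FPKM (7.86% of all loci tested), 1 with the replicate block (2.07%), and 1 to 10 when libraries were left out. They numbered 10 without control 1 (15.1% of all loci), 6 without cKO 1 (11.8%), and 1 without cKO 2 (2.71%) or control 3 (3.19%). Members whose groups did not overlap numbered 10 of 55, against 29% of all loci, and 12 to 31 with a library left out, since fewer libraries overlap less. They numbered 31 without control 1 (56.3% of all loci), 29 without cKO 1 (61.8%) and 24 without cKO 2 (43.5%). The median change of the members ranged from -0.04 to 0.17 over the left-out libraries. The titles give same-numbered libraries a shared number and no other link. The differences of replicates 1 and 2 in the 2 groups had r = -0.09, which cannot show whether such libraries shared a litter or batch. Control 3 has no cKO partner in the block, and no member was called with or without it.

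Of 27 named genes, 21 kept their sign under every alternative run. Snap47 turned to 0.0348 with median scaling, 0.11 with quantile normalization and 0.0083 with the replicate block. Ranges over the left-out libraries crossed 0 for Snap47 (-0.0696 to 0.0611), Vamp2 (-0.0058 to 0.41), Vamp3 (-0.0245 to 0.56), Stx2 (-0.30 to 0.0129), Syt13 (-1.16 to 0.21) and Syp (-0.42 to 0.18). The cause was not tested. The Sv2b change ranged from 0.68 to 0.95 over the 11 alternatives that tested it, with adjusted p from 0.324 to 1.00, and the filter of 5 FPKM removed it. Leaving out 1 cKO library leaves a lone one, which is assumed to vary like the controls. With 2 cKO libraries, 38 of 55 intervals stayed within 2-fold either way, and sequencing depth is unknown.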
